A study of Rattus norvegicus with 6 samples.

Results

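Genes of vesicle trafficking, sorting and fusion were followed in whole brain polyA RNA of naive male rats, 3 of strain BN-Lx/CubPrin (BNLx) and 3 of strain SHR/OlaIpcvPrin (SHR, the spontaneously hypertensive rat), with BNLx as the reference. The animals were untreated, their ages are not given, and each library came from 1 rat. The members are the loci of the deposited annotation whose gene name matches one of the name patterns of these proteins: the subunits of adaptor complexes, Rab, Arf and Arl GTPases, Vps and Sec proteins, sorting nexins, SNAREs and syntaxin-binding proteins, synaptotagmins, synapsins, exocyst, COPI and TRAPP. This gave 112 loci, each with 1 matching gene, of 24746 loci in all, of which 8336 carry a gene name. They hold 509 isoforms, 327 assembled by StringTie and 182 added by aptardi, a program that places further 3′ ends on assembled transcripts from read coverage and DNA sequence. Names were present in the annotation for chromosomes 2 to 9, 20, X, Y and the mitochondrion and for none of the 10413 loci on chromosomes 1 and 10 to 19, so the members lie on 10 chromosomes and are 112 of the 322 protein-coding symbols of the RefSeq table (GRCr8) that match the same patterns. Genes such as Vamp2, Stx1a and Vps35 were not analysed here. The assembly joined 17 of the 112 loci with other named genes, for example Arl8b with Edem1.

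Membrane proteins and secreted cargo move between compartments in vesicles. A coat with its adaptors buds the vesicle, a GTPase of the Rab or Arf family marks it, a tether such as TRAPP or the exocyst catches it, and SNARE proteins on vesicle and target zip together to fuse the membranes. In neurons the same machinery releases transmitter: synapsins hold the vesicles in a cluster, Syt1 senses calcium, and Snap25 is a SNARE of the plasma membrane. Sorting nexins and Vps proteins act later, when cargo is returned from endosomes or sent to lysosomes.

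Total expected counts per library ran from 11747048 to 41333078, and 1.42% to 1.72% of them fell on the members. BNLx replicate 3 and SHR replicate 1 each differed from their fellow libraries: the chi-square per degree of freedom across loci was 84.2 to 154 for pairs that include 1 of them and 10.5 and 11.97 for the other pairs, so results that rest on them are given with and without them. Markers of neurons (3 of 5 listed genes carry a name: Snap25 and Syt1, which are members, and Map2) summed to 2902 to 4734 TPM in BNLx and 2009 to 3760 in SHR, with the lowest sums in BNLx replicate 3 and SHR replicate 1. Snap25 made up most of each sum, and the 3 genes did not move alike. Their log2 fold changes (SHR over BNLx) were -0.68 for Snap25, 0.20 for Syt1 and 0.43 for Map2. Map2, in a locus joined with Unc80, had 291 to 368 TPM in BNLx, lowest in replicate 1, and 280 to 631 in SHR. The locus of Mog of oligodendrocytes had 183 to 347 TPM in BNLx and 95.05 to 196 in SHR. Slc1a2 and Slc1a3 of astrocytes summed to 701 to 858 and 920 to 1633 TPM, and 3 microglial markers to 86.8 to 101 and 97.8 to 122 TPM. No marker given was at 0, and no named gene was available for endothelium, choroid plexus, pituitary, blood or liver. In whole tissue, fewer cells of a type and less RNA per cell cannot be told apart.

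Levels are first given per transcript length, as TPM of the locus, since only these can be set beside each other between genes. The medians of the families ranged from 16.7 TPM for the exocyst to 333 TPM for the synapsins, and the median member had 46.8 TPM. Snap25 was far above every other member: its libraries read 2781, 3637 and 2107 TPM in BNLx and 1223, 2269 and 2250 TPM in SHR. All 6 values lie above the highest value of any other member, and the strains overlap.

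Other members of high level included Syt1, the calcium sensor of fast release (598 ± 142 TPM in BNLx and 725 ± 191 in SHR, each the mean ± SD of 3 libraries, as for the genes that follow). Rab6b, a Golgi Rab enriched in brain, had 437 ± 34.9 and 501 ± 191 TPM, Syn1 439 ± 151 and 497 ± 209, Syt11 407 ± 50.9 and 470 ± 50.6, and Snx3, which sorts cargo at early endosomes, 412 ± 71.6 and 401 ± 29.7. Among Rab6b, Syn1, Syt11 and Snx3 neighbours in level do not differ beyond their spread. Among the GTPases, Rab7a of late endosomes followed Rab6b with 339 ± 16.7 and 318 ± 27.7 TPM, and Arf5 (311 ± 107 and 315 ± 6.19) led the Arf and Arl group before Arl8b, a GTPase of lysosome movement (259 ± 13.4 and 256 ± 27.4, locus joined with Edem1). The smaller SNARE Vamp1, of synaptic vesicles, had 294 ± 132 and 181 ± 6.93 TPM.

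Coat, adaptor and tether genes follow. Ap3d1, the delta subunit of the AP-3 adaptor, had 119 ± 11.98 TPM in BNLx and 145 ± 25.2 in SHR, and Ap1s2, a small subunit of AP-1, 45.8 ± 30.3 and 51.9 ± 41.5, with means of 28.3 without BNLx replicate 3 and 28.1 without SHR replicate 1. The clathrin assembly protein Snap91 (AP180), which the name pattern of the SNAREs also matches, had 208 ± 16.2 and 227 ± 63.5 TPM. Copz1 of the COPI coat had 91.5 ± 3.82 and 94.3 ± 10.5 TPM, Sec23a of the COPII coat 72.0 ± 7.75 and 87.5 ± 24.8, and the translocon subunit Sec61b 65.4 ± 6.81 and 68.3 ± 16.1. For the tethers, Trappc3 had 90.3 ± 5.45 and 85.4 ± 11.6 TPM, Trappc6b 88.6 ± 4.86 and 71.9 ± 7.68, and Exoc6b 30.9 ± 5.99 and 34.9 ± 4.79. Exoc3l4, Rab19 and Snx22 were below the filter of 50 counts in 2 of 3 replicates of at least 1 strain, and Exoc3l4 was listed at 0.447 ± 0.142 and 0.777 ± 0.0551 TPM.

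Vps28, an ESCRT-I subunit, had 181 ± 8.02 TPM in BNLx and 179 ± 21.4 in SHR, and Vps26b, a subunit of retromer, 121 ± 6.11 and 144 ± 3.66. The second sorting nexin by level, Snx10, had 119 ± 4.71 and 113 ± 13.5 TPM. Among proteins named for a GTPase, Arl6ip5 had 154 ± 14.9 and 125 ± 18.3 TPM, Rab5if 94.4 ± 17.1 and 86.8 ± 9.86, Rab11fip5 74.8 ± 19.4 and 71.0 ± 10.3, and Arl14ep 33.1 ± 4.09 and 39.2 ± 1.80. Syn2 had 163 ± 22.1 and 233 ± 87.6 TPM and Stxbp6 37.6 ± 1.99 and 41.4 ± 11.5.

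**Figure D1:**
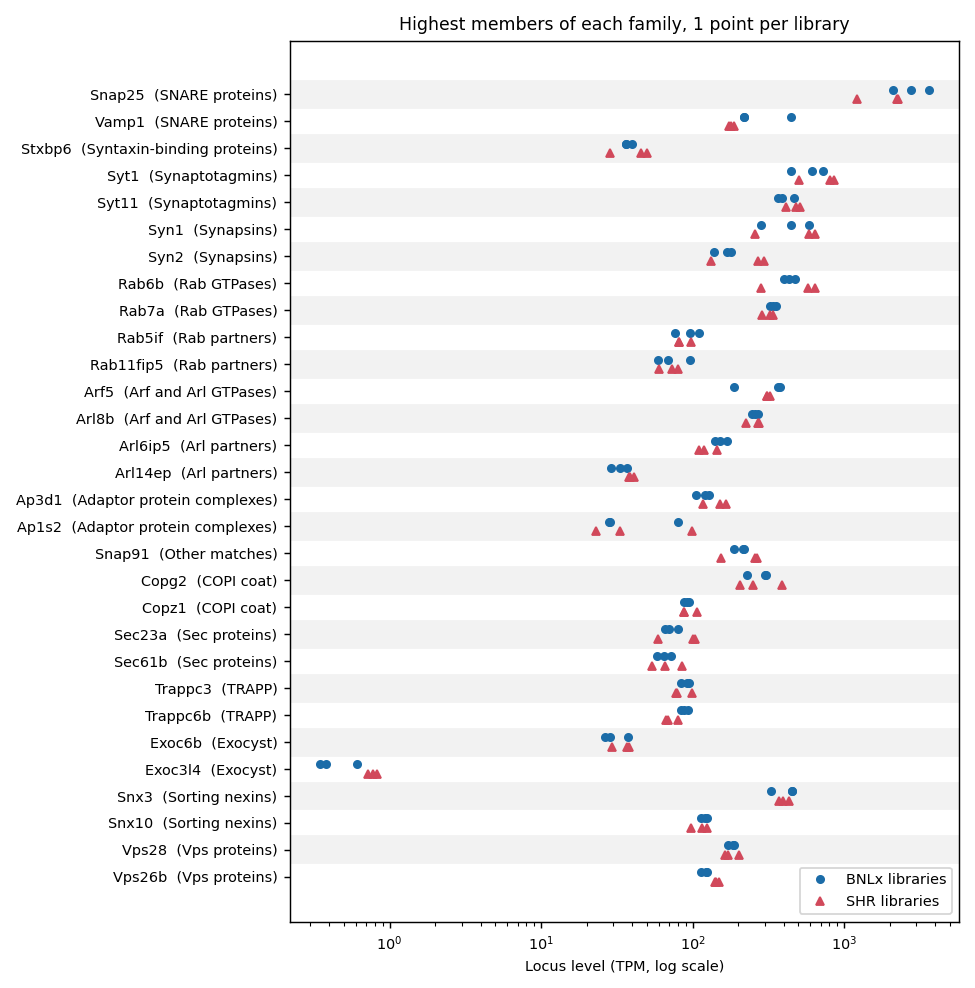
Level of the locus in TPM (log scale) for the 2 highest members of each family, with 1 point per library (circles BNLx, triangles SHR; the syntaxin-binding family and the family of other matches have 1 gene each here). Snap25 lies at 1223 to 3637 TPM, above all other members, and the strains overlap for most of the genes shown.

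A locus level is not always the level of the named gene. In 77 of the 112 loci over 50% of the counts fell on isoforms derived from a transcript that carries the member's own name, and in the others most fell on unnamed assembled isoforms or on a joined gene. The clearest case is Copg2, the gamma-2 subunit of the COPI coat (chr4:58063464-58195143, minus strand, rn6), whose locus had 278 ± 44.2 and 282 ± 95.2 TPM. An unnamed isoform of 1 exon (chr4:58089296-58093047), which lies within the 27150 bases between exons 20 and 21 of the named transcript, took 58.1% ± 5.21 of the counts in BNLx and 58.6% ± 5.005 in SHR (mean ± SD of 3 libraries). Summed over all its ends, the unnamed transcript read 247 ± 41.6 CPM in BNLx and 234 ± 114 in SHR. The 3 named isoforms together had 89.4 ± 16.2 and 83.7 ± 9.17 CPM, or 61.5 ± 14.3 and 62.2 ± 2.75 TPM. The libraries were not stranded, so reads of overlapping genes on either strand cannot be told apart. No other member locus had over 50% of its counts on unnamed isoforms of 1 exon.

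At the level of the locus no member passed the test between strains. By edgeR's quasi-likelihood test, 0 of the 109 members past the filter had an adjusted p of 0.05 or less, against 1.02% of the 14471 loci tested. At an unadjusted p under 0.05 there were 9 members (8.26%), against 10.2% of all loci. DESeq2 called 3 members (3.75% of all loci) and limma-trend on log2(TPM + 1) called 1 (0.988% of all loci). The median log2 fold change (SHR over BNLx) was -0.05 over the members and 0.00 over all loci, and its sign turned with limma-trend on log2(TPM + 1), to 0.06 against 0.07 for all loci. The median size of the change, whatever its sign, was 0.14 for members and 0.18 for all loci, and 0 members but 5.06% of all loci exceeded 1 on the log2 scale. The median standard error was 0.15 for members and 0.20 for all loci. The 5643 other named loci tested lay between, with a median size of 0.16, 3.01% over 1 and a median standard error of 0.19.

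Among the 109, 44 members had a positive and 65 a negative log2 fold change, against 49.9% negative among all loci. In the Rab family 20 of 26 tested members were negative (median -0.13), in the sorting nexins 11 of 15 (median -0.12) and in TRAPP 6 of 7 (median -0.12). The Vps proteins (7 of 10 positive, median 0.15), Sec proteins (7 of 10 positive, median 0.07), adaptor subunits (5 of 7 positive, median 0.16) and synaptotagmins (4 of 5 positive, median 0.20) leaned to the other side. By edgeR no family held a called member (the 3 called by DESeq2 are Vps52, Snx16 and Trappc3l). The middle 50% of single loci ran from -0.17 to 0.19. Outside it lay the medians of the synaptotagmins, the synapsins (0.25, 2 of 2 positive) and the Rab partners such as Rab5if (-0.21, 3 of 3 negative). A median of several genes varies less than 1 locus, so this range cannot tell whether the lean of a family is unusual. That was not tested.

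The strains did not overlap, on counts scaled to library size (CPM), for 11 members higher in SHR (10.1%, against 8.97% of all loci) and for 9 lower in SHR (8.26%, against 8.49%). The members with an unadjusted p under 0.05 were chosen for description after their values were seen. Vps52, a subunit of the GARP and EARP complexes that tether endosome-derived vesicles, had 63.4, 66.7 and 50.3 CPM in BNLx and 86.3, 91.1 and 93.1 CPM in SHR. Every SHR library lay above every BNLx library. The log2 fold change was 0.58 (standard error 0.13, adjusted p = 0.167 by edgeR, 0.0111 by DESeq2 and 0.0378 by limma-trend). Snx16, an early endosome nexin, had 25.6, 28.3 and 26.0 CPM in BNLx and 19.7, 18.5 and 19.7 in SHR (log2 fold change -0.47, standard error 0.11, adjusted p = 0.197 by edgeR and 0.0136 by DESeq2). Trappc3l, a relative of the TRAPP subunit Trappc3, had 7.62, 8.46 and 11.1 CPM against 3.95, 5.12 and 5.18 (log2 fold change -0.93, standard error 0.23, adjusted p = 0.205 by edgeR and 0.0246 by DESeq2), but only 3.63% of the counts of its locus came from the named transcript. For Snx16 and Trappc3l every SHR library lay below every BNLx library.

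Syt10, a synaptotagmin of low level, read 5.61, 5.32 and 4.39 CPM in BNLx and 7.03, 8.34 and 8.66 in SHR (log2 fold change 0.65, adjusted p = 0.308 by edgeR). Stx17, the SNARE of autophagosomes, whose locus is joined with AC142180.1, read 24.7, 25.02 and 22.1 against 28.4, 33.5 and 38.0 CPM (0.48, adjusted p = 0.312), and Ap4s1, the small subunit of AP-4, 25.6, 25.02 and 18.2 against 28.5, 31.9 and 32.1 CPM (0.42, adjusted p = 0.451). In these 3 genes the SHR libraries were the higher ones without overlap. Trappc6b, which read 49.2, 44.5 and 39.2 against 40.0, 30.95 and 31.3 CPM (-0.38, adjusted p = 0.470), overlapped. Vamp1 and Rab7a are the others of the 9 and are described with their isoforms.

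**Figure D2:**
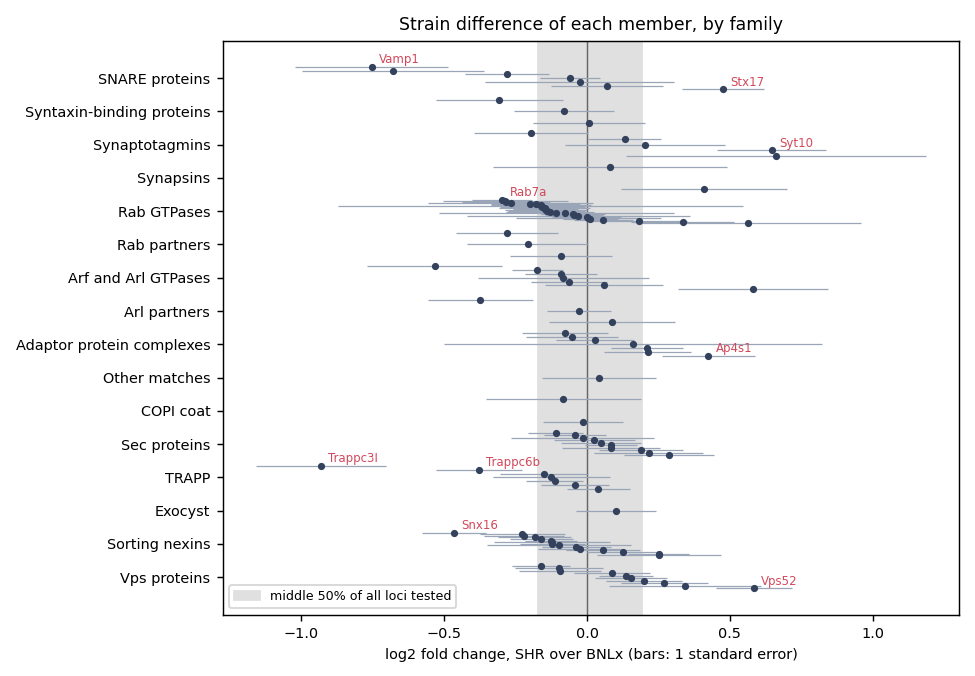
Log2 fold change (SHR over BNLx) of the 109 members past the filter by family, with bars of 1 standard error; the grey band is the middle 50% of all loci tested, -0.17 to 0.19. Names mark the 9 members with an unadjusted p under 0.05, and 0 of the 109 passed an adjusted p of 0.05, both by edgeR; DESeq2 passed 3 and limma-trend 1.

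Snap25, the member of highest level, read 2107, 2668 and 1406 CPM in BNLx against 874, 1475 and 1512 CPM in SHR. The lowest library of each strain was the one that stands apart, and the strains overlapped. Its log2 fold change was -0.68 (standard error 0.32, adjusted p = 0.541 by edgeR) and -0.68 (adjusted p = 0.0120) without these 2 libraries. Without both, 33 of the 109 members passed, against 28.8% of all loci, 30.3% of the members. Rab3c, a Rab of synaptic vesicles, turned its sign and became the largest of these (chosen after its values were seen): it read 24.5, 25.1 and 121 CPM in BNLx and 26.5, 63.9 and 61.7 in SHR, a log2 fold change of -0.16 with all libraries and 1.34 without both (adjusted p = 0.000938). The sets of 2 libraries per strain that remain measure their own spread only.

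BNLx replicate 3 and SHR replicate 1 were also set against their fellow libraries, with no test. In SHR replicate 1, 7 members were over 1.5-fold above the mean of the other SHR libraries (6.42%, against 11.9% of all loci) and 10 were as far below (9.17%, against 14.5%). In BNLx replicate 3 the counts were 6 above (5.50%, against 14.6%) and 10 below (9.17%, against 14.5%). The synapsins were low in each of these libraries, with a median of -1.05 in SHR replicate 1 and -0.74 in BNLx replicate 3 on the log2 scale, and Syn1, Snap25 and Syt1 were lower in each than in the other libraries of the strain. Ap1s2 was high in both, at 66.2 CPM in BNLx replicate 3 and 85.4 CPM in SHR replicate 1 against 18.3 to 27.8 CPM elsewhere. Rab15 and Arf5 were low in BNLx replicate 3 alone (78.2 against 213 and 235 CPM, and 77.6 against 175 and 163 CPM), and Syt6 was high in SHR replicate 1 alone (69.8 against 25.4 and 16.999 CPM). Marker sums that move with these libraries are given above, and their part in the differences was not tested.

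**Figure D3:**
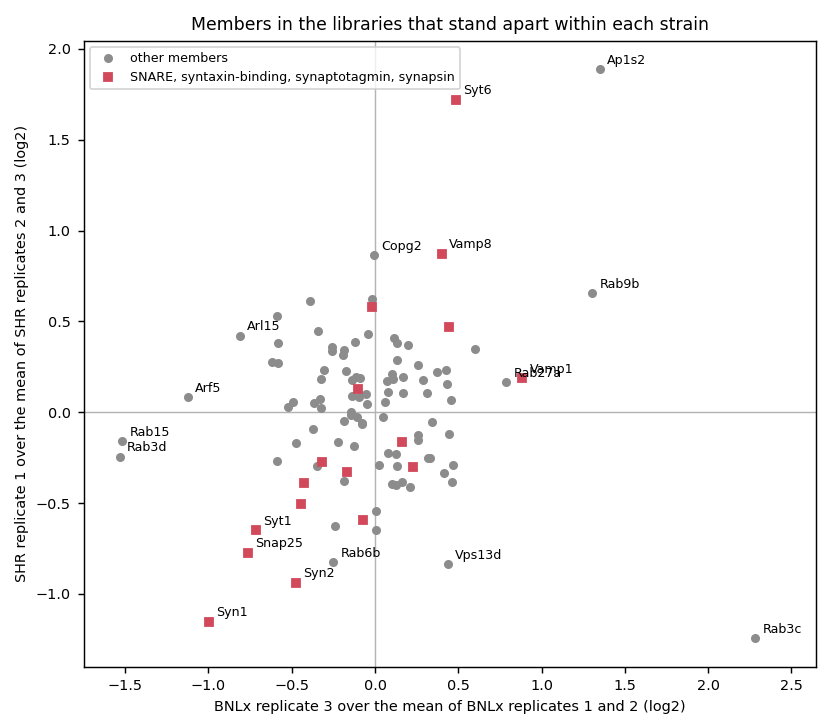
Each point is a member past the filter: log2 of BNLx replicate 3 over the mean of BNLx replicates 1 and 2 (horizontal) and of SHR replicate 1 over the mean of SHR replicates 2 and 3 (vertical), from CPM. Squares are SNARE, syntaxin-binding, synaptotagmin and synapsin genes; Syn1 lies low in both libraries, Ap1s2 high in both, and Rab3c at 2.28 and -1.24.

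Aptardi ends were counted next, with no test of the difference between members and other genes. Of the 112 loci 59 (52.7%) had an aptardi isoform, against 2247 of 8224 other named loci (27.3%), and among loci past the filter the shares were 54.1% and 39.0%. The members past the filter also had a higher level, a median of 48.3 against 27.3 TPM, and its part in the share was not tested. Of the 182 aptardi isoforms 98 (53.8%) ended before the transcript they derive from, by a median of 2476 bases, and 84 ended beyond it, by a median of 1161 bases. Over all loci 64.6% of 11559 ended before it, by a median of 1420 bases, and the median extension was 682 bases. Among isoforms past the filter the medians were in another order: the members ended before it by a median of 1086 bases and beyond it by 1996, against 1372.5 and 1078.5 bases over all loci, with 50.9% and 64.1% ending before it. The longest shortening, 13916 bases, was in Snx14. An isoform of the Rab22a locus, which is joined with Vapb, was extended by 6043 bases. Rab3ip, which activates Rab8, with 11 aptardi isoforms, and Arl5a and Snx14, with 16 and 15 in joined loci, held the most. Isoforms of a locus can share an end, as those of Snx14 with the longest shortening do. The counts and medians above are therefore of isoforms and not of separate ends.

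Single isoforms were compared next by edgeR, at an unadjusted p of 0.001, the threshold that the study applied to DESeq2. Of 319 member isoforms past the filter 1 passed (0.313%), against 1.00% of the 32348 tested, and 0 passed an adjusted p of 0.05. DESeq2, the study's test, called 11 at the same unadjusted threshold (3.45%), against 3.60% of all isoforms. By edgeR without both libraries that stand apart 13 passed, against 2.92%. Expected counts of isoforms that share most of their sequence are divided by a model, and the tests do not carry the error of that division. Isoforms are named here by the locus and a suffix. A suffix with 1 number is an assembled transcript, and a further number marks an aptardi end of it.

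The called isoform is the assembled form of Rab7a that ends farthest downstream (STRG.17851.1; locus chr4:119910478-119959173, minus strand). It fell from 253, 276 and 203 CPM in BNLx to 119, 79.2 and 81.1 CPM in SHR, which is -1.39 on the log2 scale with a standard error of 0.22 (adjusted p = 0.0954, edgeR), and each SHR library was below each BNLx library. Its unadjusted p was 0.000914, and it rose above 0.001 when any library other than SHR replicate 1 was left out (0.00122 to 0.0053), with the replicate block (0.00324) and without a filter (0.00102). By edgeR the call was kept without SHR replicate 1, without both libraries that stand apart and with relative log expression size factors. The alternative tests called STRG.17851.1 too (adjusted p = 6.69e-07 by DESeq2 and 0.0237 by limma-trend). The aptardi isoform that ends 279 bases earlier (STRG.17851.1.3) read 14.3, 0 and 1.34 CPM in BNLx and 93.2, 94.4 and 105 CPM in SHR. Again the strains did not overlap, here with SHR higher, but its log2 fold change of 4.18 had a standard error of 1.51 (adjusted p = 0.515). The remaining end, 679 bases earlier, read 33.0, 25.2 and 71.2 against 26.7, 61.8 and 49.2 CPM and overlapped.

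In shares of the Rab7a locus, the farthest end held 82.8% ± 9.04 of the locus in BNLx and 39.1% ± 9.07 in SHR, and the end 279 bases earlier 1.74% ± 2.61 and 40.9% ± 2.80 (SD, n = 3 each). The shares of these ends in SHR differ by less than their spread, and the farthest end had the higher count in SHR replicate 1. Summed over the ends of this transcript the libraries read 300.0, 301 and 275 CPM against 239, 235 and 235 CPM. For the whole locus the log2 fold change was -0.30 (adjusted p = 0.403 by edgeR, standard error 0.11), without overlap in CPM and with overlap in TPM. In the test of isoform usage the locus did not pass (adjusted p = 0.0535). By mean share the leading isoform differed between the strains, as in 9 of the 70 members with at least 2 isoforms past the filter (12.9%, against 14.8% of 7742 loci).

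Isoform usage, the test of whether the isoforms of a locus change by different amounts, called 4 of the 70 members (5.71%), against 4.37% of 7742 loci. These were Copg2, Ap3b1, Vamp1 and Vps52, a locus joined with a U6 small RNA that had 0 counts. Without the libraries that stand apart 22 of the 70 passed (31.4%), against 23.0% of all loci.

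Copg2 had the lowest p (adjusted p = 1.76e-05). The assembled named isoform (STRG.16731.1) was at 0 in every BNLx library and at 3.17, 4.10 and 13.2 CPM in SHR, at least 34.5-fold higher in SHR when 3 counts per library are set as the floor. The aptardi isoform that ends 1369 bases farther downstream (STRG.16731.1.2) was the reverse: it read 1.46, 8.18 and 4.73 CPM in BNLx and 0 in all SHR libraries, which makes it at least 40.8-fold lower there. These bounds fell to 18.4-fold without SHR replicate 3 and to 26.4-fold without BNLx replicate 2, a check chosen after seeing the data. Neither passed at the isoform level (adjusted p = 0.136 and 0.149 from edgeR). Most of the named product took the end between them, 469 bases beyond the assembled one, with 80.8, 69.8 and 103 CPM in BNLx and 91.1, 73.7 and 65.9 CPM in SHR, which overlap. The 3 named isoforms summed to 89.4 ± 16.2 CPM in BNLx and 83.7 ± 9.17 in SHR. The assembled isoform and the farthest one each held 0 to 2.60% of the counts of the locus on average in either strain. The limma usage test on voom weights did not call the locus (adjusted p = 0.906).

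Of all 319 member isoforms past the filter, 4 were at 0 counts in every library of 1 strain (1.25%, against 1.24% of all isoforms), 3 in BNLx and 1 in SHR. The others, named here after their values were seen, are an aptardi isoform of Rab11a (STRG.31436.2.3), a Rab of recycling endosomes, and one of Rab6b (STRG.32456.1.1). That of Rab11a read 6.88, 11.5 and 0.919 CPM in SHR and that of Rab6b 0, 17.1 and 4.14 CPM. Both were at 0 in BNLx.

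Ap3b1, the beta subunit of AP-3, the adaptor for cargo of lysosomes and related organelles, showed a shift between a pair of ends 628 bases apart (locus chr2:24021176-24229225, plus strand; usage adjusted p = 0.00156 from edgeR and 0.0164 with limma on voom weights). Its assembled named isoform (STRG.7285.1), with the downstream end at 24226224, read 1.01, 2.79 and 1.42 CPM in BNLx and 6.17, 6.10 and 6.29 CPM in SHR. The aptardi form of the same transcript, which ends at 24225596, read 18.7, 16.6 and 27.7 against 16.3, 12.5 and 10.6 CPM. Thus SHR was higher at the downstream end and lower at the upstream end, without overlap in either.

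A pair of unnamed Ap3b1 transcripts share these ends. Summed over the 3 transcripts, the downstream end read 4.65, 5.19 and 4.33 CPM in BNLx and 12.4, 10.7 and 12.02 CPM in SHR, and the upstream end 31.9, 28.1 and 40.5 against 25.5, 22.5 and 21.4 CPM. The downstream end thereby held 12.7% ± 2.97 of both ends in BNLx and 33.6% ± 2.03 in SHR (mean ± SD of 3 libraries). The upstream end was the more used one in all 6 libraries. The locus did not pass (log2 fold change -0.08, standard error 0.15, adjusted p = 0.901), and a further end 3001 bases beyond the downstream one read 5.31 to 9.15 CPM in BNLx and 6.00 to 10.02 CPM in SHR, which overlap.

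Vamp1 (chr4:157726941-157733766, plus strand; usage adjusted p = 0.00325) differed in the use of a pair of assembled forms with the same start and end. The isoform that carries the reference name (STRG.18609.2) read 49.4, 43.5 and 96.0 CPM in BNLx and 1.52, 0 and 0 CPM in SHR. An unnamed isoform with the same start and end (STRG.18609.1) differs from it by 1 gap of 60 bases in the last exon (chr4:157731907-157731966), which the assembly models as an intron. No sequence was read at the gap, and whether it arises by splicing was not tested. The values of STRG.18609.1 follow. It read 195, 172 and 377 CPM in BNLx and 198, 164 and 172 CPM in SHR. In shares of the locus, the form without the gap held 17.6% ± 1.15 in BNLx and 0.223% ± 0.386 in SHR libraries, and the form with it 69.2% ± 4.33 and 85.7% ± 0.800 (SD, n = 3 each).

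The share of the Vamp1 form without the gap had an SD of 1.15 percentage points over the BNLx libraries. BNLx replicate 3 had the highest total, 499 CPM for the locus against 276 and 265 CPM in the other BNLx libraries and 224, 190 and 203 CPM in SHR. The log2 fold change of the locus was -0.75 (standard error 0.27, adjusted p = 0.403) and -0.46 without both libraries that stand apart. A form that ends 123 bases farther downstream (STRG.18609.1.1) read 12.3, 13.6 and 13.4 CPM in BNLx and 7.69, 4.91 and 3.86 CPM in SHR, without overlap (log2 fold change -1.25, standard error 0.31, adjusted p = 0.257). The limma usage test on voom weights did not call Vamp1 (adjusted p = 0.457).

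Vps52 (chr20:5364146-5441706, minus strand; usage adjusted p = 0.0258) was higher in SHR in each of its isoforms past the filter, by unequal amounts, and none passed the isoform threshold. The full-length named isoform (STRG.55724.1) read 59.3, 61.9 and 47.6 CPM in BNLx and 72.9, 80.6 and 78.8 CPM in SHR. An unnamed isoform (STRG.55724.2) that joins exons of Vps52 to a last exon of 345 bases lying 67857 bases downstream read 0.539, 0 and 0 against 7.45, 3.10 and 4.87 CPM, and held 0.276% ± 0.478 and 5.66% ± 2.55 of the locus. A short named fragment (STRG.55724.3) read 1.11, 1.39 and 0.947 against 3.33, 2.48 and 3.95 CPM. None of these 3 overlapped between strains. The call was lost when BNLx replicate 2 or any SHR library was left out (adjusted p = 0.115 to 0.216), without both libraries that stand apart (adjusted p = 0.0921) and in the limma usage test on voom weights (adjusted p = 0.521).

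**Figure D4:**
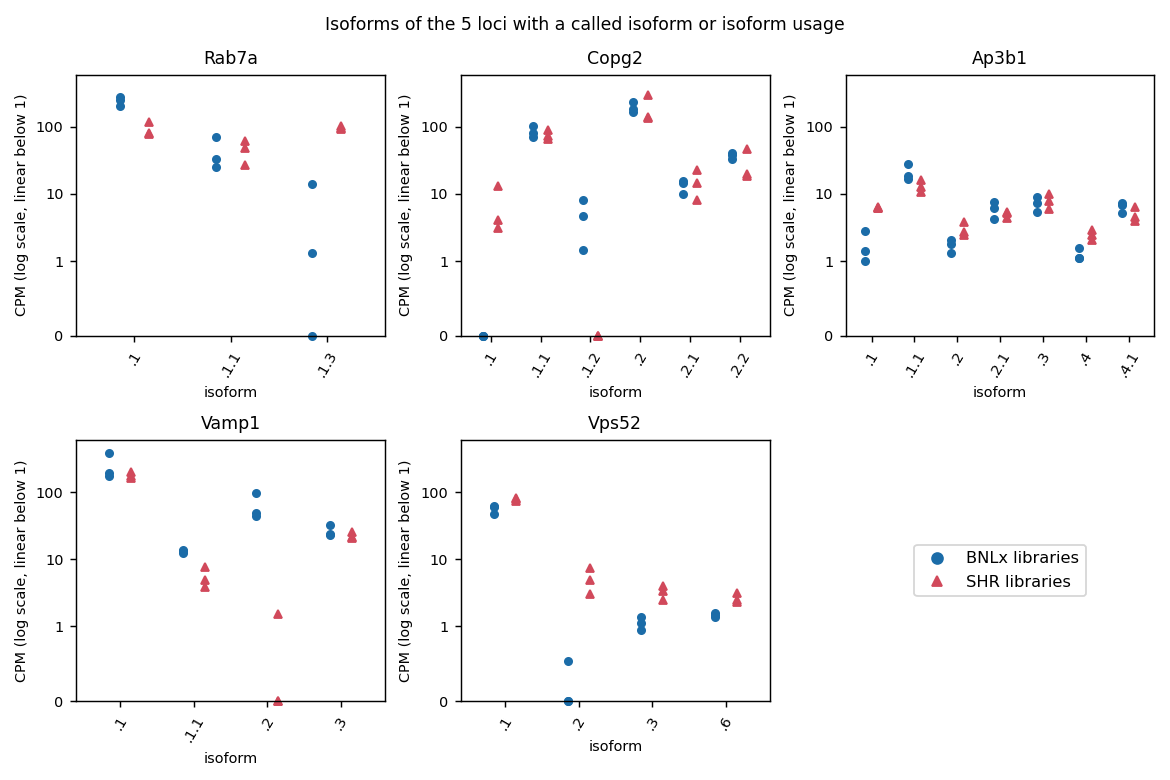
CPM of each isoform past the filter of Rab7a, Copg2, Ap3b1, Vamp1 and Vps52, 1 point per library (circles BNLx, triangles SHR; log scale, linear below 1). Suffixes name the isoforms; the first Rab7a isoform is lower and the last higher in SHR, the first of Copg2 is at 0 in BNLx and the next but one at 0 in SHR, and the named isoform of Vamp1 has 43.5 to 96.0 CPM in BNLx and at most 1.52 CPM in SHR.

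Other genes of the pathway were taken from 8 lists of 145 genes outside the name patterns, of which 50 carry a name in the annotation and 49 were tested. In these, 0 passed an adjusted p of 0.05 by edgeR in either direction, against 1.02% of the 14471 loci tested. The median log2 fold change was 0.13 for 7 other synaptic vesicle proteins, 0.19 for 9 proteins of release priming and the active zone, -0.05 for 7 of clathrin and dynamin, 0.09 for 7 regulators of the Rab and Arf cycle, 0.08 for 11 Golgi tethers and p24 proteins and -0.08 for 5 ESCRT subunits, beside 0.00 for all loci. The only NSF or SNAP adaptor tested was at 0.11 and the 2 other Golgi and ER SNAREs had a median of -0.01. The lists of release and of synaptic vesicles were lowest in SHR replicate 1, at 359.9 TPM in sum against 596 and 668 in the other SHR libraries for release, and 1782 against 2335 and 2399 for synaptic vesicles. Clathrin and dynamin (1182 TPM) and the NSF or SNAP adaptor (159 TPM) were lowest there too. Among the SHR libraries so were the Rab and Arf cycle (818 against 870 and 887 TPM) and the Golgi tethers and p24 proteins (505 against 546 and 567). The ESCRT subunits were also lowest there (424 against 435 and 447), and the other Golgi and ER SNAREs highest (120 against 108 and 109). In BNLx replicate 3 release was the lowest of its strain (447 against 481 and 563 TPM). Synaptic vesicles were the highest there (2118 against 1886 and 2050 TPM).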

How the data were processed

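PolyA RNA of whole brain was sequenced for 3 BNLx and 3 SHR rats. Per the labels and the methods, the authors trimmed reads with cutadapt, aligned them with HISAT2, assembled 1 transcriptome from the merged reads of both strains with StringTie 1.3.5 on rn6, added 3′ ends with aptardi 1.0.0 and ran RSEM. The deposited values are RSEM expected counts per isoform and locus, not normalized, and TPM, which the authors' RSEM scaled per library and length. Expected counts were rounded, kept at 50 counts in 2 of 3 replicates of at least 1 strain, scaled by TMM and tested with edgeR 4.0.16 (quasi-likelihood, two-sided, strain only; diffSpliceDGE for usage) in R 4.3.3 over all loci or isoforms, with Benjamini-Hochberg adjustment. DESeq2 1.42.0, of which the study used another version, and limma 3.58.1 were alternatives. Scripts were tested on simulated data. Bounds against 0 use 3 counts per library and cover counting error only. Depth was 11747048 to 41333078 expected counts per library. The rats are biological replicates by the methods.

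Members, families and gene lists were chosen with earlier results of these data known. Genes were named if called, if among the 2 highest of a family by TPM, or, for Ap3b1, because the study shows it; exceptions are stated. A few genes that this would name are not reported here. No sequence is shown, since an rn6 genome was not used here.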

Additional observations from a re-analysis of the deposited data

How the results depend on the processing

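Relative log expression size factors, the absence of a filter and single-gene loci left the count of 0 members called at the locus level as it was, as did leaving out each library. DESeq2 gave 3, limma-trend 1 and leaving out both SHR replicate 1 and BNLx replicate 3 (chosen after seeing the data) 33. The count of 1 isoform called became 11 with DESeq2, 4 with limma-trend, 13 without both libraries, 0 without a filter and 0 at an adjusted p of 0.05, and 0 to 2 when 1 library was left out (0 without BNLx replicate 2, BNLx replicate 3, SHR replicate 2 or SHR replicate 3; the 2 without BNLx replicate 1 did not include Rab7a STRG.17851.1). The count of 4 members in the usage test became 22 without both libraries and 2 with limma on voom weights, where Ap3b1 was kept, and ranged from 3 to 6 when 1 library was left out. The median log2 fold change ranged from -0.0906 to -0.0168 when 1 library was left out and was 0.0621 with limma-trend.

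Strains share replicate numbers, but same-numbered libraries did not deviate together (r = -0.04, 0.32 and -0.20 across loci, which are not independent), so the numbers were not taken to pair the rats. With the replicate block 0 members were called at the locus level, 0 isoforms and 4 in the usage test, with a median of -0.04. Rab7a STRG.17851.1 kept its direction in all alternatives, with log2 fold changes of -1.73 to -1.28. The Copg2 and Vamp1 usage calls were lost only with limma on voom weights. The causes of these changes were not tested. Depth limits isoforms of few counts most: at 0 counts in a strain only a lower bound of the fold is known.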
